A study of Mus musculus with 4 samples.

Results

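The MHC class I genes and the genes that load class I molecules with peptide were followed across 4 single-cell RNA libraries of MMTV-neu mice. The set was a named list of 10 genes out of 27998 in the count files, and it is defined by name, not by a measured value: the heavy chain genes H2-D1, H2-K1, H2-Q4 and H2-T23, the light chain gene B2m, the peptide transporter genes Tap1 and Tap2, the tapasin gene Tapbp, and the immunoproteasome subunit genes Psmb8 and Psmb9. All 10 were detected in every library. The 4 libraries were the late lung (mice over 20 weeks of age with primary tumors), the early lung (14 to 18 weeks, no palpable tumor), the primary tumor (over 20 weeks) and the early lesion (mammary gland at 14 to 18 weeks), each made from sorted CD45- HER2+ cells. All mice were FvB and carried the MMTV-neu transgene, in which a mammary tumor virus promoter drives rat Erbb2 (neu, HER2) mainly in mammary epithelium, so no library came from mice without it. Each group had 1 library, the sources used here do not give how many mice a library holds, and nothing below carries a test. Intervals are exact 95% intervals that cover counting error only.

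MHC class I molecules carry short peptides from the inside of a cell to its surface, where CD8 T cells and natural killer cells read them. The immunoproteasome, with Psmb8 and Psmb9 as catalytic subunits, cuts proteins in the cytosol. The transporter made of Tap1 and Tap2 moves the peptides into the endoplasmic reticulum (ER), where tapasin holds the heavy chain with B2m next to the transporter until a peptide fits. The mRNAs of the heavy chains, B2m, Tap1, Tap2 and Tapbp are translated on ER-bound ribosomes, and the 8 genes are called the ER-made members below. Psmb8 and Psmb9 are translated on free ribosomes and are called the cytosolic members. Most nucleated cells express class I, and interferons raise nearly the whole set.

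Apart from B2m on chromosome 2 (chr2:122147686-122153083, plus strand), the set lies in the mouse MHC on chromosome 17. On mm10, with GENCODE M21 gene boundaries, H2-K1 runs over chr17:33996017-34000347 (minus strand), H2-D1 over chr17:35262730-35267499 (plus), H2-Q4 over chr17:35379617-35385290 (plus) and H2-T23 over chr17:36029773-36032855 (minus). Tapbp lies at chr17:33915899-33929292 (plus). A short stretch holds Psmb9 (chr17:34181987-34187764, minus), Tap1 (chr17:34187553-34197225, plus), Psmb8 (chr17:34197721-34201454, plus) and Tap2 (chr17:34203527-34216321, plus).

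Promoter sequence was found for 9 of the 10 genes in the RefSeq table (build GRCm38.p6). The 250 bases before the start are shown for the classical heavy chain genes H2-D1 and H2-K1 and for H2-Q4, whose levels are set side by side below, and for B2m, their partner chain. Capitals mark exact matches, on either strand, to GGGATTCCC, an NF-kB type site of the class I enhancer, and to GTTTCNNTT, the core of an interferon response element.
H2-D1, chr17:35262844-35263093, plus strand: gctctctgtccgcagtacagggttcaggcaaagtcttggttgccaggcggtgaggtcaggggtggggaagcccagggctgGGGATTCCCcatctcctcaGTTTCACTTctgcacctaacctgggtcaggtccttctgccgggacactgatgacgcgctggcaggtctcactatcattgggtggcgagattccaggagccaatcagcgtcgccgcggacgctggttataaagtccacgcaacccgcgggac
H2-K1, chr17:34000348-34000597, minus strand: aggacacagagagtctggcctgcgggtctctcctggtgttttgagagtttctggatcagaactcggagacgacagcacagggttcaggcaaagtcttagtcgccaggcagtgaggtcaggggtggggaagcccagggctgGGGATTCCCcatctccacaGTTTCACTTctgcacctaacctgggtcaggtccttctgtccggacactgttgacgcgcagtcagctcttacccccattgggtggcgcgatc
H2-Q4, chr17:35379367-35379616, plus strand: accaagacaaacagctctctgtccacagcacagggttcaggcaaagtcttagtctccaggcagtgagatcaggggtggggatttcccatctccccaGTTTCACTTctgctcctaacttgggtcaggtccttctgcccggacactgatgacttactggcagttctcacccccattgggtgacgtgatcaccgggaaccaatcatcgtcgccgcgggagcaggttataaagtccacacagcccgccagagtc
B2m, chr2:122147437-122147686, plus strand: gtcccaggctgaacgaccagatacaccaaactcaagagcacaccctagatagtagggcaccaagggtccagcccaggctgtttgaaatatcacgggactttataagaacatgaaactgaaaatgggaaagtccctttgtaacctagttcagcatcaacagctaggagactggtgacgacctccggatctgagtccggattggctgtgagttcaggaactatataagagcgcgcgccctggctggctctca
The first motif was found in the H2-D1 and H2-K1 stretches, and in 84 of 27025 mouse promoter stretches of that length (0.311%). The second was found in H2-D1, H2-K1 and H2-Q4, and in 1349 of the 27025 (4.99%). Neither was found in the stretches of B2m, H2-T23, Tap1, Tapbp, Psmb8 or Psmb9. Only these exact letters were searched, so other spellings of either kind of site were not counted. The H2-Q4 stretch, for instance, holds gggatttccc, which was not counted as a match. A missing match therefore does not show that a gene lacks such a site. In the best alignment, 91.6% of the aligned bases of the H2-D1 and H2-K1 stretches were identical, against 67.9% for H2-D1 and H2-T23. The stretches of H2-D1, Tapbp, Psmb8 and Psmb9 lie wholly inside those genes' GENCODE spans, and that of H2-T23 in part, so the windows searched need not lie before every start of these genes. A match is a match of letters only.

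Psmb9 and Tap1 are read in opposite directions from a shared stretch of 225 bases between their RefSeq starts. The GENCODE spans of the pair overlap, and the stretch lies inside that of Psmb9. It is shown because the pair sets a cytosolic beside an ER-made member at 1 promoter region. The capitals mark CCAAT, which 34.5% of mouse promoter stretches hold on either strand.
Psmb9 to Tap1, chr17:34187331-34187555, plus strand: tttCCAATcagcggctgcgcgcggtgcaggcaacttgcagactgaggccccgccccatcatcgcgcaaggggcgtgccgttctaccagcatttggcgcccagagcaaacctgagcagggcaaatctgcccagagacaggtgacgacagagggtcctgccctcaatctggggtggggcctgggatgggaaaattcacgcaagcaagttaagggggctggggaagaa

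Cells were barcodes with at least 500 UMIs (unique molecular identifiers, each tagging 1 captured RNA molecule), at least 250 genes and at most 20% of UMIs from mitochondrially encoded genes, whose names begin with mt-. This left 210 cells in the late lung, 185 in the early lung, 434 in the primary tumor and 1318 in the early lesion, from libraries of 1070236, 743765, 3403140 and 6366768 UMIs. The median depth was 811 UMIs per late lung cell, 772 per early lung cell, 1657.5 per tumor cell and 2360 per lesion cell. The median mt- share was 2.71% in the late lung, 3.46% in the early lung, 0.469% in the tumor and 0.126% in the lesion. Cells over 10000 UMIs numbered 8, 1, 18 and 21 in the same order and held 42.2%, 5.60%, 54.5% and 6.50% of the cells' UMIs. No cell barcode was shared between libraries. The lung libraries carry the name DCCs in the labels. Of their cells, however, only 7 (late) and none (early) fell in clusters named mammary luminal-like, and the largest lung classes were endothelial-like (55 late, 73 early) and alveolar type 1-like (93 late, 61 early). Erbb2, for which the files list no separate transgene, was found in 2 late lung, 2 early lung, 29 tumor and 30 lesion cells. Ptprc (CD45) was found in 2 lesion cells and in no other library, and cells with UMIs of 3 or more of 14 leukocyte markers numbered 2 in the late lung, 1 each in the early lung and the tumor, and 3 in the lesion.

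Class I light and heavy chain RNA was abundant in all 4 libraries. Levels are CPM, UMIs summed over the cells of a library and scaled to a total of 1000000, so fewer cells of a type and less RNA per cell cannot be told apart in them. B2m, the chain shared by all class I molecules, stood at 4162 CPM in the late lung, 3682 in the early lung, 2812 in the primary tumor and 2823 in the early lesion. H2-D1, which encodes a classical heavy chain that presents peptides to CD8 T cells, stood at 5303 CPM in the late lung, 4001 in the early lung, 2362 in the tumor and 1639 in the lesion. Both lung libraries lay above both libraries of the primary site for these genes. H2-K1, the other classical heavy chain gene measured, stood at 1466 CPM in the late lung, 918 in the early lung, 1478 in the tumor and 1241 in the lesion, with the late lung and tumor intervals overlapping.

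H2-Q4, a nonclassical heavy chain gene, stood at 296 CPM in the late lung (interval 246 to 354), 226 in the early lung (165 to 301), 64.1 in the tumor (53.0 to 76.8) and 78.4 in the lesion (69.9 to 87.7). Its lung intervals lay wholly above those of the primary site. Most of its lung UMIs lay in endothelial-like cells, a class described below (118 of 122 late, 44 of 46 early). H2-T23, which encodes Qa-1, the ligand of the CD94 and NKG2 receptors of natural killer cells, was highest in the tumor at 233 CPM (211 to 256), against 126 CPM in the late lung, 103 CPM in that of younger mice and 122 CPM in the lesion. Those 3 libraries did not differ beyond their counting intervals. The tumor's lead rested on few cells: without cells over 10000 UMIs H2-T23 stood at 118 CPM in the tumor, against 75.6 CPM in the late lung, 104 CPM in the early one and 119 CPM in the lesion.

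The loading genes were far less covered. Tap1 had 7 UMIs in the late lung, 2 in the early lung, 48 in the tumor and 119 in the lesion, or 16.99, 9.82, 26.3 and 30.3 CPM, with intervals that all overlapped. Tap2 stood at 55.8 CPM (23 UMIs) in the late lung, 24.5 (5 UMIs) in the early lung, 41.1 in the tumor and 83.3 in the lesion. Tapbp was highest in the late lung at 187 CPM (147 to 234), against 93.3 CPM in the early lung, 94.2 in the tumor and 86.3 in the lesion, whose intervals overlapped. Psmb8 stood at 238 CPM in the late lung, 280 in the early lung, 239 in the tumor and 442 in the lesion, and Psmb9 at 216, 128, 84.3 and 164 CPM. Psmb8 was highest in the lesion, with an interval of 422 to 464 that touched no other. Psmb9 was lowest in the tumor at 71.5 to 98.8 CPM, an interval that reached that of the early lung (83.4 to 187).

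**Figure D1:**
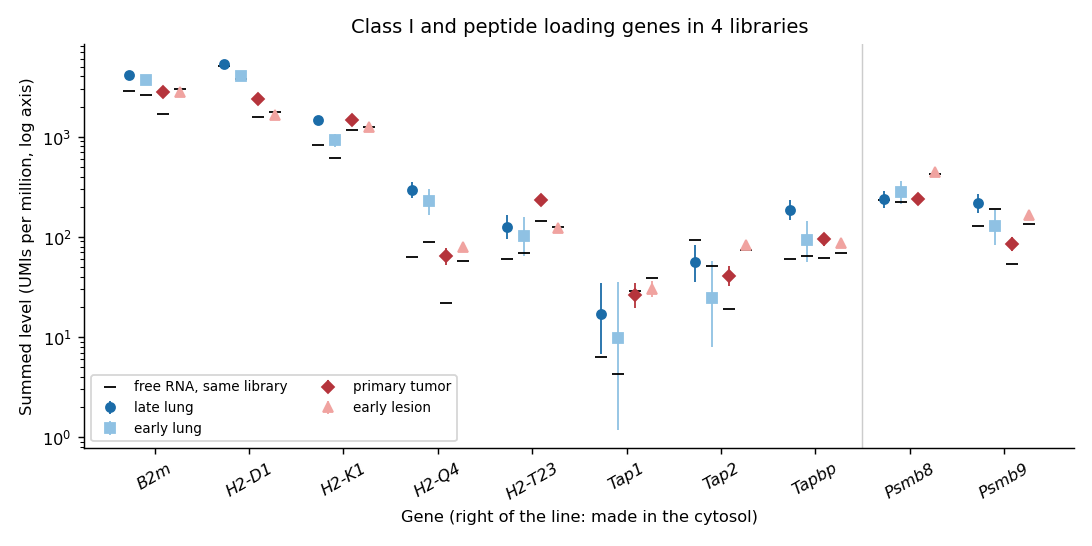
CPM (log axis) of the 10 genes in the cells of the late lung, early lung, primary tumor and early lesion. Points are sums over the cells of 1 library, bars are 95% counting intervals, and black dashes are the level in the same library's barcodes with 1 to 50 UMIs (free RNA); H2-Q4 lies between 226 and 296 CPM in the lungs and between 64.1 and 78.4 CPM at the primary site.

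Barcodes with at most 50 UMIs hold mostly RNA free in the suspension, and they held every member. Cell levels lay between 0.48 and 4.72 times those of free RNA, the highest for H2-Q4 in the late lung (296 CPM in cells and 62.7 in free RNA), followed by Tapbp there (187 and 59.6) and H2-Q4 in the tumor (64.1 and 21.8). In the lesion, free RNA held H2-D1 at 1751 CPM and B2m at 3015 CPM, slightly above the cells. In the tumor it held H2-D1 at 1570 and B2m at 1691 CPM, below the cells. How much of a cell's class I UMIs came from free RNA was not tested, and since most nucleated cells express class I, no class could serve as a blank. Few cells also held most tumor counts: cells over 10000 UMIs carried between 76.9% and 87.2% of the tumor UMIs of each ER-made member, against 45.0% for Psmb8 and 52.0% for Psmb9. In the late lung 8 such cells carried between 56.6% and 71.4% of the UMIs of each member. Without cells over 10000 UMIs H2-D1 stood at 790 CPM in the tumor, 1625 in the lesion, 3603 in the late lung and 3662 in the early lung. Psmb9 then stood at 147 CPM in the late lung, 135 in the early lung, 89.2 in the tumor and 167 in the lesion. Tapbp stayed highest in the late lung, at 122 CPM.

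Sequence shared with other genes adds a limit for the heavy chains. Of the 50-base words in the last 500 bases of the longest coding transcript, where these libraries are read, 38.1% in H2-T23, 33.7% in H2-Q4, 9.53% in H2-D1 and 0.443% in H2-K1 also occurred in another gene, and none did in the other 6 members. For H2-K1 the other gene was H2-D1. The others included Rab33b and H2-T-ps for H2-T23, Olfr1238 for H2-Q4, and Adsl and Kcnk4 for H2-D1. The shares therefore do not measure overlap among class I genes alone. FvB mice also carry another MHC haplotype than the reference strain, so reads of their heavy chains can differ from the reference. Its effect on the counts was not tested.

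Set against each other, the ER-made and cytosolic members differed between libraries. The 8 ER-made members summed to 11613 CPM in the late lung, 9058 in the early lung, 7110 in the tumor and 6103 in the lesion, and Psmb8 with Psmb9 to 454, 408, 323 and 606 CPM. This gave 25.6 ER-made UMIs per cytosolic UMI in the late lung, 22.2 in the early lung, 22 in the tumor and 10.07 in the lesion. The free RNA of the same libraries held 25.1, 17.7, 16.2 and 11.5. The lesion had the lowest ratio in the cells and in the free RNA. In the cells its place below the tumor rested on 18 tumor cells: without cells over 10000 UMIs, a setting chosen after seeing the data, the tumor held 7.55 ER-made UMIs per cytosolic UMI and the lesion 9.97, against 25.7 in the late lung and 20.3 in the early lung.

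The primary tumor was compared with the early lesion to ask how the pathway differs between an established tumor and the gland before one can be felt. Over all cells, 1 of the 10 genes was at least 2-fold lower in the tumor and none higher, where of the 9811 genes with at least 20 UMIs 7.12% were lower and 25.6% higher. Tap2 was the lower gene, at 41.1 CPM in tumor cells against 83.3 CPM in lesion cells (log2 ratio -1.01, -1.40 to -0.65). Psmb9 (-0.95) and Psmb8 (-0.89) lay just inside the 2-fold limit, and H2-T23 (0.93, and -0.01 without cells over 10000 UMIs) just inside it on the other side. The median of the 10 genes was -0.10, against 0.33 for all genes tested.

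That comparison depended on which cells were summed. Without cells over 10000 UMIs, 6 of the genes were at least 2-fold lower in the tumor, and H2-D1 turned from 0.53 to -1.04 and H2-K1 from 0.25 to -1.40. The share of all genes that were lower in this setting is not given here, so that count cannot be read against it. With median-of-ratios scaling H2-K1 stood at -0.05 and Tapbp at -0.17, where they were 0.25 and 0.13. Mitochondrial RNA also differed. Only 302 of 434 tumor cells were under a 1% mt- share, against 1207 of 1318 lesion cells. Tumor and lesion cells were therefore also set side by side on the same side of that limit.

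Among cells under 1%, 7 of the 10 genes were at least 2-fold lower in the tumor and none higher, where 15.3% of 8548 genes were lower and 14.8% higher. The members' median was -2.02, against 0.14 for all genes tested. H2-K1 stood at 250 CPM in the tumor cells and 1236 in the lesion cells, 4.93-fold lower (log2 ratio -2.30, -2.53 to -2.09). H2-D1 stood at 423 CPM in the tumor cells and 1592 in the lesion cells, 3.76-fold lower (-1.91, -2.09 to -1.75). B2m stood at 1258 CPM in the tumor cells and 2826 in the lesion cells, 2.24-fold lower (-1.17, -1.27 to -1.07). The peptide transporter and tapasin went with them: Tap2 had 7 UMIs in the tumor cells and 302 in the lesion cells (-2.95, -4.37 to -1.99), Tapbp 13 and 310 (-2.14), Tap1 4 and 112 (-2.26), and H2-Q4 10 and 294 (-2.42). These tumor cells held H2-D1, H2-K1 and B2m below the 1570, 1155 and 1691 CPM of their library's free RNA.

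The 3 genes short of the 2-fold limit were H2-T23 (-0.79, -1.26 to -0.38), Psmb9 (-0.80, -1.19 to -0.45) and Psmb8 (-0.53, -0.74 to -0.33). The ER-made sum was 2048 CPM in the tumor cells and 6048 in the lesion cells, while the cytosolic sum was 400 and 608 CPM. The difference of the 2 log2 ratios was -0.96 (-1.16 to -0.77), where over all cells it was 1.13. Restricted to the cells named mammary luminal-like, 331 in the tumor (cluster 7, and 2 cells of cluster 8) and 1187 in the lesion (mainly clusters 8, 9, 10 and 11), the same 7 genes were lower, from -1.14 for B2m to -3.03 for Tap2, where 14.8% of 8521 genes were lower and 15.1% higher. Tumor and lesion luminal-like cells lay in different clusters, each mostly of 1 library, so cell state and library cannot be told apart. Cluster 7 had the lowest luminal score of those named (0.15, a mean of z-scores over the marker list). The tumor cluster led by Car6 and Aqp5, described below, scored higher on that list (0.37) and was left out by a limit on mt- share chosen after values were seen.

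Among cells at or over 1%, 132 in the tumor and 111 in the lesion, the picture was another. Here too, most cells of each library fell in clusters that the other library hardly shared. An unnamed cluster led by Apoe and mt-Nd3 held 75 lesion cells but only 3 tumor cells. The Car6 and Aqp5 cluster held 73 tumor cells and 0 lesion cells. One led by Xist, Nf1 and Auts2 held 21 tumor cells and 6 lesion cells. Cluster and library therefore cannot be told apart on this side. H2-T23 was at least 2-fold higher in the tumor (338 CPM in tumor and 150 in lesion cells, log2 ratio 1.15, 0.64 to 1.75), where 24.2% of 6800 genes were higher. Tap2 (61.0 CPM in tumor and 121 in lesion cells, -1.0003, -1.66 to -0.26) lay at the 2-fold limit and Psmb8 (197 CPM in tumor and 478 in lesion cells, -1.28, -1.63 to -0.92) past it, where 7.74% of genes were at least 2-fold lower. Without tumor cells over 10000 UMIs, a setting chosen after seeing the data, Tap2 stood at -0.48 (-1.69 to 0.56, from 11 UMIs in the tumor and 25 in the lesion), H2-T23 at 1.38 and Psmb8 at -1.04. H2-D1 stood at 3601 CPM in the tumor cells and 2475 in the lesion cells (0.54), and H2-K1 at 2263 and 1341 CPM (0.75). Psmb8 was thus lower in the tumor on both sides of the limit, past 2-fold on 1, though neither side compares cells of the same clusters.

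**Figure D2:**
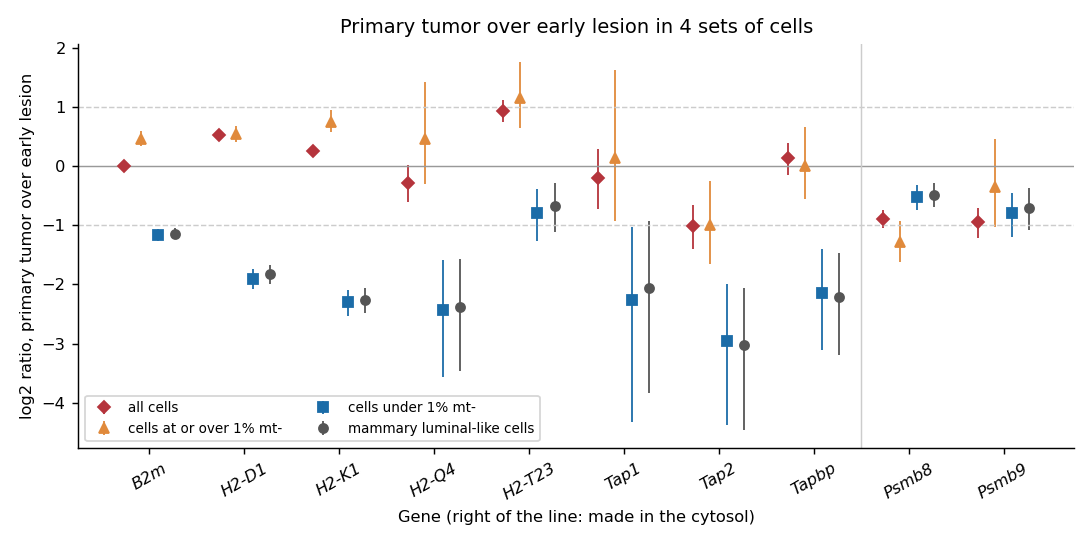
log2 ratio of primary tumor over early lesion for each gene, over all cells, cells at or over 1% mt-, cells under 1% mt- and mammary luminal-like cells, with 95% counting intervals and dashed lines at 2-fold. The 7 genes from B2m to Tapbp other than H2-T23 lie below the lower dashed line in cells under 1% and in luminal-like cells, between -1.14 and -3.03.

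Many of the listed genes that work beside the members in the ER went the same way between the luminal-like cells. Of 8 other peptide loading and trimming genes, 4 were at least 2-fold lower in the tumor cells and none higher (median -0.89, against 0.14 for all genes tested). The calreticulin gene Calr, a chaperone that holds new class I molecules, stood at 67.7 CPM in the tumor and 311 in the lesion (-2.19, -2.64 to -1.80), and Canx (calnexin) and Pdia3 (ERp57, a thiol oxidoreductase of the loading complex) at -1.84 and -1.44. Erap1, which trims peptides in the ER, had 3 UMIs in the tumor and 45 in the lesion (-1.41, -3.94 to 0.03). The cytosolic genes of that list did not pass 2-fold: Psmb10, the third immunoproteasome subunit, stood at -0.38 (-0.91 to 0.09), and the proteasome activator genes Psme1 and Psme2 at -0.33 and -0.38.

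Of 18 genes of ER translocation and folding, 11 were lower and none higher (median -1.34), among them Rpn2 (-2.26) and Ddost (-2.15), subunits of the enzyme that glycosylates new ER proteins, and the chaperone gene Hspa5 (BiP, -1.81). The rest did not pass 2-fold. The summed list differed less, at 2679 CPM in the tumor and 3737 in the lesion (-0.48), where the ER-made sum stood at -1.52. The 14 constitutive proteasome subunit genes had none past 2-fold in either direction (median 0.33). Of 8 other class I heavy chain genes with enough counts out of 22, H2-Q6 (-2.68) and H2-Q7 (-1.05) were lower and Mr1, which presents vitamin metabolites, was higher (12.0 CPM in the tumor and 3.25 in the lesion, 1.90, 0.45 to 3.25). Of 11 regulator genes with enough counts out of 15, 4 were lower and none higher (median -0.26), where 14.8% of all genes tested were lower and 15.1% higher. Among them Ifngr1, the interferon-gamma receptor chain that binds the ligand, had 5 UMIs in the tumor cells and 222 in the lesion cells (-3.05, -4.82 to -1.94). Ifngr2, the other receptor chain, stood at -1.01, and of the kinases of that receptor Jak2 had 1 UMI in the tumor and 21 in the lesion (-1.55, -7.47 to 0.54), while Jak1 stood the other way at 51.8 CPM in the tumor and 27.6 in the lesion (0.92, 0.33 to 1.45). Irf1, an interferon-induced factor, stood at -0.94 (-1.93 to -0.16).

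Within the primary tumor, the cells at or over 1% mt- share held far more ER-made class I RNA than the cells under it. All 8 ER-made members were at least 2-fold higher in the 132 cells at or over 1% than in the 302 cells under it, where 28.3% of 7487 genes were higher and 7.19% lower, and neither cytosolic member passed 2-fold. The members' median was 2.60, against 0.06 for all genes tested. H2-K1 stood at 2263 CPM at or over 1% and 250 under it, 9.03-fold higher (log2 ratio 3.17, 2.96 to 3.41). H2-D1 stood at 3601 CPM at or over 1% and 423 under it, 8.50-fold higher (3.09, 2.92 to 3.26). B2m was the least raised of the 8, at 3805 CPM at or over 1% and 1258 under it (1.60, 1.49 to 1.70).

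The other ER-made members lay between these. Tapbp had 159 UMIs at or over 1% and 13 under it (2.92, 2.15 to 3.91), Tap1 44 and 4 (2.66), Tap2 68 and 7 (2.55), H2-Q4 107 and 10 (2.71) and H2-T23 376 and 49 (2.28). Psmb8 stood at 197 CPM at or over 1% and 305 under it (-0.63, -0.91 to -0.35), and Psmb9 at 77.2 and 95.5 CPM (-0.31, -0.78 to 0.17), a sign that turned with median-of-ratios scaling (0.11) and with the mean over cells (0.34). The neighbours Tap1 and Psmb9, which share the promoter stretch shown above, thus stood 2.66 and -0.31 on the log2 scale. The ER-made sum was 10346 CPM at or over 1% and 2048 under it, the cytosolic sum 274 and 400 CPM, and the difference of the log2 ratios 2.88 (2.64 to 3.13).

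Of the 132 cells, 17 were over 10000 UMIs, against 1 of the 302. Without those 18 cells the ER-made sum stood at 8113 CPM at or over 1% and 1878 under it, and the difference was 2.41 (1.92 to 2.89). All 8 ratios were then still above 2-fold, though Tap1, Tap2 and H2-Q4 had under 20 UMIs, so 5 counted as higher, where 12% of 4266 genes were higher and 11.9% lower. The single cells showed the same split. With each cell thinned to 500 UMIs, H2-D1 was found in 61.4% of cells at or over 1% (52.5% to 69.7%) and 15.9% of cells under it (12.0% to 20.5%), H2-K1 in 46.2% and 7.28%, and B2m in 59.8% and 33.8%. Psmb8 was found in 7.58% of cells at or over 1% (3.69% to 13.5%) and 12.3% of cells under it (8.77% to 16.5%), with overlapping intervals. Unthinned, H2-D1 was found in 51.8% of all tumor cells and B2m in 72.1%.

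**Figure D3:**
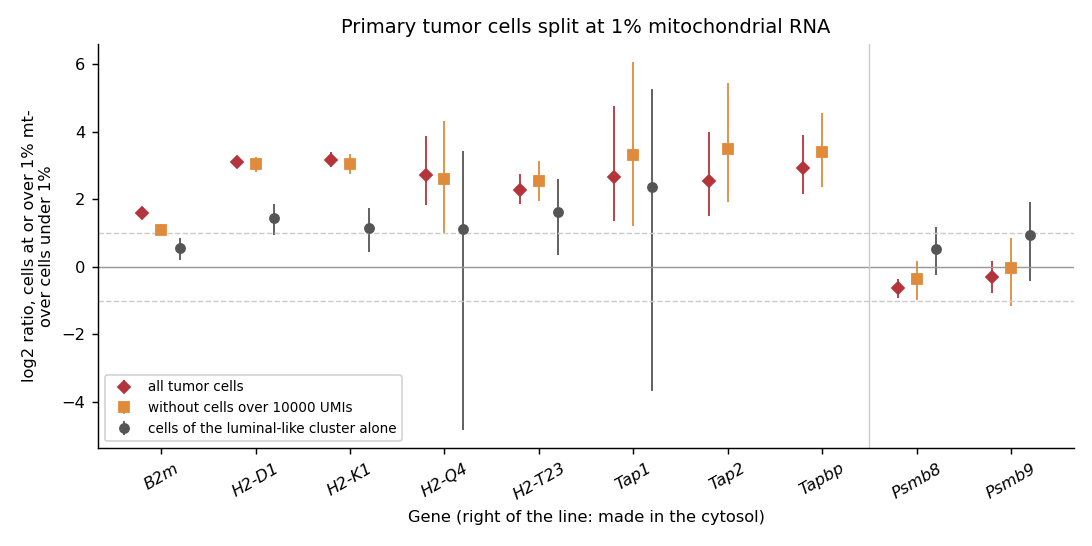
log2 ratio of tumor cells at or over 1% mt- over tumor cells under 1% for each gene, in all tumor cells, without cells over 10000 UMIs, and within the luminal-like cluster alone, with 95% counting intervals and dashed lines at 2-fold. In all cells the 8 ER-made members lie between 1.60 and 3.17 and Psmb8 and Psmb9 at -0.63 and -0.31 (Psmb9 above 0 under other scalings); Tap2 and Tapbp had no UMI in the 34 luminal-like cells at or over 1% and are not drawn there.

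The step lay near 1%. Over the bins 0 to 0.25%, 0.25 to 0.5% and 0.5 to 1% mt- share, the ER-made sum of the tumor cells was 1634, 2129 and 2069 CPM. From 1 to 2% it was 6567 CPM, over 19 cells, and from 2 to 5%, 5 to 10% and 10 to 20% it was 10910, 10105 and 11139 CPM. The cytosolic sum was 287, 402 and 482 CPM in the bins under 1% and 361, 346, 223 and 94.5 CPM in those above, the last from 6 UMIs. In the early lesion the ER-made sum stayed between 5370 and 8508 CPM over the same bins.

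**Figure D4:**
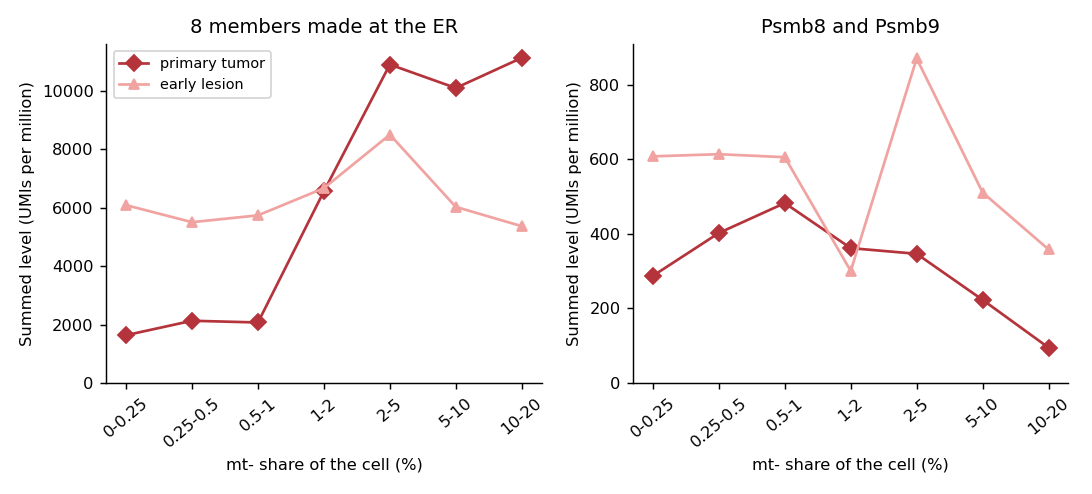
Summed CPM of the 8 ER-made members (left) and of Psmb8 with Psmb9 (right) against the mt- share of the cell, in bins, for the primary tumor and the early lesion. The tumor's ER-made level lies at or below 2129 CPM in the bins under 1% and at 10105 CPM or more from 2% up, while the lesion's lies between 5370 and 8508 CPM.

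The same limit set in the other libraries gave other results. In the early lesion the ER-made sum was 7092 CPM at or over 1% and 6048 under it, the cytosolic sum 574 and 608 CPM, and the difference 0.31 (0.03 to 0.58). H2-D1 was found there in 53.2% of thinned cells at or over 1% and 52.8% of those under it. In the late lung the ER-made sum was 14840 CPM at or over 1% and 2189 under it and the cytosolic sum 551 and 171 CPM, a difference of 1.11 (0.38 to 1.84). In the early lung both sums were higher at or over 1% (11664 CPM ER-made, 559 cytosolic) than under it (3622 and 90.9 CPM) (difference of the log2 ratios -0.83, -2.04 to 0.38). In the lungs the limit also separates cell classes, since 53 of 55 endothelial-like cells of the late lung and 66 of 73 of the early lung lay at or over it. Within alveolar type 1-like cells of the late lung, the ER-made sum was 4894 CPM in 65 cells at or over 1% and 2814 in 28 under it. The difference of the log2 ratios there was 1.14 (-0.34 to 2.63), from 11 and 6 cytosolic UMIs.

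In the tumor too, the limit separated clusters. Of the 132 cells at or over 1%, 73 belonged to an unnamed cluster of 77 shallow cells led by Car6 and Aqp5 (median 825 UMIs and 11.7% mt-), 21 to an unnamed cluster led by Xist, Nf1 and Auts2, and 34 to luminal-like cluster 7, which held 295 of the 302 cells under it. Within cluster 7 alone the difference was 0.25 (-0.35 to 0.86): the ER-made sum was 3638 CPM in its 34 cells at or over 1% and 1997 in the 295 under it, and the cytosolic sum 610 and 404 CPM. H2-D1 differed there by 1.43 (log2). Over the whole split, cluster and mt- share cannot be told apart.

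Both unnamed clusters stood above the luminal-like cells of the same tumor. In the Car6 and Aqp5 cluster the ER-made sum was 10349 CPM and the cytosolic sum 127 CPM, against 2105 and 416 CPM in the luminal-like cells. All 8 ER-made ratios were above 2-fold there, 5 of them with at least 20 UMIs, where 13.6% of 4248 genes were higher: H2-D1 3.16, H2-K1 3.18, H2-T23 2.63, Tapbp 3.55 and B2m 1.28. Psmb8 (8 UMIs in the cluster, 237 in luminal-like cells, -1.55, -2.86 to -0.63) and Psmb9 (2 in the cluster, 76 in luminal-like cells, -1.68, -5.06 to -0.09) were lower, where 24.2% of genes were. In the Nf1 and Auts2 cluster, whose 21 tumor cells include 17 over 10000 UMIs, the sums were 10614 and 267 CPM, all 8 ER-made members were at least 2-fold higher (28.5% of 7334 genes were, and 8.11% were lower), and Psmb8 (-0.71) and Psmb9 (-0.42) did not pass 2-fold.

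Over all tumor cells, most of the other ER genes listed split as the ER-made members did. Within luminal-like cluster 7 alone they did not: the summed ER translocation and folding list stood at -0.08 across the limit, and the ER-made sum at 0.87. The counts that follow are over all tumor cells. Of the 18 ER translocation and folding genes, 13 were at least 2-fold higher at or over 1% and none lower (median 1.79, against 0.06 for all genes tested). Hsp90b1 (GRP94, an ER chaperone) stood at 713 CPM at or over 1% and 61.8 under it (log2 ratio 3.51), Hspa5 at 3.41 and Pdia4 at 3.59, whereas Sec61g, a small subunit of the translocation channel, stood at -0.73 (-0.90 to -0.56). Of the 7 loading and trimming genes with enough counts, Calr (2.99), Pdia3 (2.11), Canx (1.88) and the tapasin relative Tapbpl (1.25, -0.10 to 3.12) were higher, and the cytosolic Psme1 (-0.79), Psme2 (-0.53) and Psmb10 (-0.34) were not past 2-fold. Of the 14 constitutive proteasome genes 1, Psmb7 (-1.01), was lower and none higher (median -0.63). Among other class I genes, H2-Q6 (3.21), Cd1d1 (2.34), H2-Q1 (2.16) and H2-Q7 (2.13) were higher, out of 7 measured.

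Without the 1 tumor cell that had 3 or more leukocyte markers the difference was 2.88, and all 8 ER-made members were still at least 2-fold higher. In the tumor cells the leukocyte list summed to 12.6 CPM, with Ptprc, Coro1a, Fcer1g, C1qa, Cd3e, Nkg7, Cd79a and Ms4a1 at 0, against 55.3 CPM in the lesion. In the lungs it summed to 629 CPM (late) and 275 CPM (early), with Ptprc at 0 in both. The highest of the list there were Lyz2 (345 CPM late, 147 early), C1qa (155 and 58.9) and Fcer1g (48.5 and 44.2).

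Summed over all cells, the members differed little between the lung libraries. Late over early, 1 of the 9 genes with enough counts was at least 2-fold higher and none lower, where 12.6% of 4552 genes were higher and 4.96% lower. Their median was 0.41, against 0.05 for all genes tested. The higher gene was Tap2, with 23 UMIs in the late lung and 5 in the early lung (1.08, -0.24 to 2.94), so that no change was detectable at this depth. Tapbp (77 UMIs late, 19 early, 0.97, 0.26 to 1.81), Psmb9 (0.74, 0.11 to 1.45) and H2-K1 (0.67, 0.44 to 0.92) were higher by less than 2-fold. The 8 late lung cells over 10000 UMIs held 42.2% of the late lung's UMIs. Without such cells Tapbp stood at 0.53, H2-K1 at 0.26 and Psmb9 at 0.11.

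Within the lungs the level followed the cell class in both libraries. Endothelial-like cells, which line blood vessels, had an ER-made sum of 20048 CPM in the late lung and 19126 in the early lung. Alveolar type 1-like cells, the flat cells of gas exchange, had 4255 and 4822 CPM, and pericyte and smooth muscle-like cells 4173 and 3050 CPM. Airway secretory-like cells, a cluster that also showed alveolar type 2 genes, had 1483 CPM in the late lung. The cytosolic sum was 770 and 1015 CPM in endothelial-like cells and 213 and 98.1 CPM in alveolar type 1-like cells, so both kinds of member were higher in endothelial-like cells.

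Endothelial-like over alveolar type 1-like, all 9 genes with enough counts in the late lung passed 2-fold upward (29.5% of 2736 genes did, and 17.3% downward), as did all 6 in the early lung (22.3% of 1249, and 20.8% downward). H2-D1 stood at 9408 CPM in endothelial-like and 1640 in alveolar type 1-like cells of the late lung (2.52, 2.26 to 2.79), and at 8763 and 1962 CPM in the early lung (2.15, 1.88 to 2.45). H2-K1 stood at 2629 CPM in endothelial-like and 413 in alveolar type 1-like cells of the late lung (2.65), and at 2309 and 180 CPM in the early lung (3.62). H2-Q4 had 118 UMIs in endothelial-like and 2 in alveolar type 1-like cells of the late lung (4.22, 2.65 to 7.60), and 44 and 1 in the early lung (4.66, 2.67 to 10.56). The 9 include Tap2, with 20 UMIs against 0 in the late lung (at least 2.63-fold higher against a floor of 3 counts), and the 6 include Psmb9, with 25 against 0 in the early lung (at least 7.09-fold). The clusters were made without the members or other class I genes.

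The 14 constitutive proteasome genes did not follow this order, with none higher and a median of -0.36 in the late lung, and none of 13 higher, 2 lower and a median of -0.03 in the early lung. The ER translocation and folding list had 1 of 16 genes higher and 1 lower in the late lung and none of 8 higher and 1 lower in the early lung. Late over early within endothelial-like cells, B2m (-0.05), H2-D1 (0.10), H2-K1 (0.18) and H2-Q4 (-0.08) had intervals that included 0. Tapbp stood at 301 CPM in the late and 111 in the early endothelial-like cells (1.36, 0.37 to 2.71), and Psmb8 at 385 CPM late and 668 early (-0.80, -1.33 to -0.25). Without cells over 10000 UMIs, which leaves 49 late and 72 early cells, H2-D1 (0.33, 0.16 to 0.51) and H2-K1 (0.44, 0.10 to 0.80) had intervals above 0, Psmb8 stood at -0.96 (-1.82 to -0.19), and Tapbp at 1.45 (-0.05 to 3.37) with 13 UMIs late and 5 early, too few to be counted. Within alveolar type 1-like cells H2-K1 had 33 UMIs late and 11 early (1.16, 0.18 to 2.33). B2m (-0.31) and H2-D1 (-0.26) had intervals there that included 0.

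**Figure D5:**
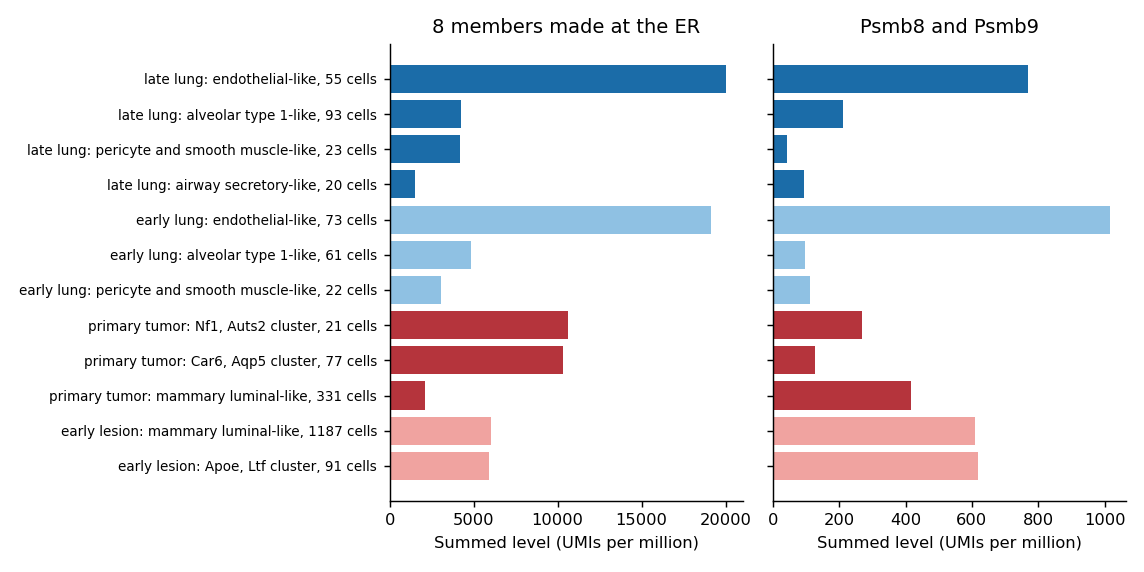
Summed CPM of the 8 ER-made members (left) and of Psmb8 with Psmb9 (right) in each class or cluster with at least 20 cells, by library. Endothelial-like cells of the lungs hold 20048 (late) and 19126 CPM (early) of the ER-made members, the 2 unnamed tumor clusters 10614 and 10349 CPM, and the luminal-like cells 2105 CPM in the tumor and 6048 CPM in the lesion.

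The lung libraries were also set against the primary site at the same stage, which compares lung cell classes with mammary cells. Late lung over primary tumor, 3 of 10 genes were at least 2-fold higher and none lower, where 22.5% of 8740 genes were higher and 21.4% lower. They were H2-Q4 (2.21, 1.83 to 2.59), Psmb9 (1.36, 0.96 to 1.74) and H2-D1 (1.17, 1.09 to 1.24), and Tapbp (0.99) lay just inside the limit. Early lung over early lesion, H2-Q4 (1.54, 1.05 to 1.98) and H2-D1 (1.29, 1.18 to 1.39) were higher and Tap2 (5 UMIs in the lung, 327 in the lesion, -1.63, -3.39 to -0.53) and Tap1 (2 in the lung, 119 in the lesion, -1.31, -4.69 to 0.26) lower, where 29.9% of 8776 genes were higher and 24.7% lower. H2-Q4 was past 2-fold in both. The counts of higher genes in both pairs, and of lower genes in the early pair, were near or under the shares of all genes. H2-K1 stood at -0.01 in the late pair and -0.43 in the early pair. H2-T23 was lower by less than 2-fold in the late pair (-0.87, -1.33 to -0.47), as was Psmb8 in the early pair (-0.65, -1.07 to -0.28). Without cells over 10000 UMIs the late pair widened: H2-Q4 stood at 3.42, H2-D1 at 2.19 (3603 CPM in the late lung and 790 in the tumor), Tapbp at 1.49, B2m at 1.16, Tap2 at 1.005 and H2-K1 at 0.99 (920 CPM in the late lung and 463 in the tumor), while Psmb9 was at 0.73, under 2-fold.

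Across the 12 classes of at least 20 cells, the genes most like the summed members were Tmed4 (Pearson r 0.95), Myo18a (0.89), Nemf (0.89), Setd1b (0.89) and Spns2 (0.89), out of 7430 ranked. The classes share libraries, and Myo18a, Nemf, Setd1b and Spns2 were at 0 CPM in at least 1 class, so these values are a description.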

How the data were processed

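Single-cell RNA was measured in 4 libraries of sorted CD45- HER2+ cells, prepared with the 10x Chromium 3′ v2 kit and sequenced on an Illumina NextSeq 550, per the labels' protocols. The matrices deposited by the authors give raw UMI counts for every gene and barcode, neither normalized nor restricted to cells. The submitters' processing notes name mm10, while aligner, counter and annotation release are not given in the sources used here.

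UMIs were summed over cells and divided by the summed total to give CPM, with Python 3.11.15, numpy 2.4.6, scipy 1.17.1 and pandas 2.3.3. Ratios are log2 ratios after adding 0.5 counts to each sum, with exact 95% conditional binomial intervals. UMIs of 1 cell are not independent draws, so intervals are too narrow where few cells hold most counts. With 1 library per group no test was possible. A gene was counted as higher or lower at 2-fold or more among genes with at least 20 UMIs over both sums. The calculations were tested on simulated data.

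Cells were clustered with scanpy 1.11.5 without the members and other class I genes (2000 variable genes, 30 components, 15 neighbours, Leiden resolution 1), and named "-like" from 14 marker lists, where at least 3 markers were detected in 10% of a cluster's cells. Clusters were left unnamed where the best list's score was not above 0 or another list had more markers among the 10 leading genes, and also, by a rule chosen after values were seen, where at least 2 leading genes were mt- genes or the median mt- share was over 10%. These names may differ from the study's own. Doublets were kept and no doublet caller was run. Free RNA was read from barcodes with 1 to 50 UMIs.

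The members, gene lists and comparisons were chosen with earlier results of these data known. All 10 members are reported in every library. Genes of the other lists are named as examples, and the comparisons within clusters and on either side of the 1% limit were chosen after values were seen. Promoters are RefSeq sequences of GRCm38.p6 and boundaries GENCODE M21. The values of 1 regulator gene are not reported here.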

Additional observations from a re-analysis of the deposited data

Results flagged for a closer look

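Tap2, the second chain of the peptide transporter, had late over early ratios of opposite sign at the 2 sites. Late over early, its log2 ratio was 1.08 in the lungs (23 UMIs in the late and 5 in the early lung) and -1.01 at the primary site (75 UMIs in the tumor and 327 in the lesion). It stood out because the ratios have opposite signs and are both past 2-fold. The difference was not tested, each stage and site has 1 library, and the lung interval (-0.24 to 2.94) includes 0, so no difference between the lungs is shown.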

How the results depend on the processing

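Counts of genes past 2-fold changed with the cells summed and with the scaling. The counts below are of members alone, and for most of these settings the share of all genes past 2-fold is not given here. They show how the counts depend on the setting, not whether the members differ from other genes. For primary tumor over early lesion, where 1 gene was lower, 6 were lower without cells over 10000 UMIs, 7 in mammary luminal-like cells, 7 in cells under 1% mt- share, 3 with the mean over cells, 3 with median-of-ratios scaling, 3 with totals that leave out milk protein genes and 0 with 5 counts added. The ER-made minus cytosolic difference of that comparison, 1.13 over all cells, was 0.14 with the mean over cells and reversed to -0.40 without cells over 10000 UMIs, -0.97 in luminal-like cells and -0.96 in cells under 1% mt-.

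For late over early lung, where 1 gene was higher, 0 were higher without cells over 10000 UMIs, 0 with the mean over cells, 0 with 5 counts added, 0 with a minimum of 100 UMIs and 2 with median-of-ratios scaling, and 1 was lower with the mean over cells. For early lung over early lesion, 1 was higher with median-of-ratios scaling, and 1 was lower with the mean over cells and 0 with 5 counts added, which also turned Tap1 to 0.12. For late lung over primary tumor, 5 were higher without cells over 10000 UMIs, and 2 were lower with the mean over cells and 1 with median-of-ratios scaling.

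For the tumor split, where 8 were higher, 5 were higher without cells over 10000 UMIs and 3 in luminal-like cells, where Tapbp turned to -0.81 with 0 UMIs in the 34 cells at or over 1%. Its difference, 2.88, was 2.41 without cells over 10000 UMIs, 2.35 with the mean over cells, 2.59 with the split at 0.5% and 0.24 in luminal-like cells. Apart from the alternatives' own construction, the causes were not tested. Leaving out cells with leukocyte markers, an alternative chosen after seeing the data, changed no count. Depth limits Tap1 and Tap2 most, with 2 and 5 UMIs in the early lung. No paired analysis was possible because each group has 1 library.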

Other observations

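Regulators of the class I genes were also read across the tumor's 1% mt- limit. Of 10 regulator genes with enough counts, 4 were at least 2-fold higher at or over 1% and none lower (median 0.53, against 0.06 for all genes tested), where 28.3% of all genes tested were higher. Without cells over 10000 UMIs 3 had enough counts, of which 1 was higher and 1 lower (median -0.38), where 12% of 4266 genes were higher and 11.9% lower. Over all tumor cells, the higher genes included Nfkb1, an NF-kB subunit gene, with 28 UMIs at or over 1% and 3 under it (log2 ratio 2.38, 0.88 to 4.94), Ifngr1 (21 and 4 UMIs, 1.61, 0.18 to 3.75), and Jak1, the kinase of interferon receptors (175 and 38 UMIs, 1.54, 1.05 to 2.10). Irf1 stood at -0.27 (-1.39 to 0.90) and Irf2 at -0.90 (-1.74 to -0.09). Whether these move with the members cell by cell was not tested.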
